A study of Rattus norvegicus with 18 samples.

Results

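The Frizzled and LRP WNT receptor genes were taken from the RNA-seq of Rat1 fibroblasts as the symbols Fzd1 to Fzd8, Lrp5 and Lrp6 that occur in the expression table. Of these 10 genes, 8 are among the 13188 genes of the table (Fzd1, Fzd2, Fzd3, Fzd4, Fzd5, Fzd6, Lrp5 and Lrp6), and Fzd7 and Fzd8 were not analysed here. All 18 libraries come from one rat fibroblast line, HO15.19, which lacks both copies of the endogenous myc gene (myc-/-), and they fall into 6 groups of 3. The groups are myc-/- cells and myc-/- cells given back MYC as a human transgene (myc-/- + MYC), both without transfection; the same lines transfected with a control siRNA (myc-/- siCtrl and myc-/- + MYC siCtrl); and myc-/- + MYC cells transfected with one of 2 siRNAs against the aryl hydrocarbon receptor AHR (siAHR-2 and siAHR-5). Human MYC was expressed from a retroviral vector, so by design the groups with and without MYC differ in a transgene. Transfected cells received 40 nM siRNA and were harvested 48 h later. Nothing in the labels says that the 3 libraries of a group are separate cultures, so that p-values measure only the spread between these libraries.

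Frizzled proteins are receptors with 7 membrane-spanning segments that bind WNT ligands through a cysteine-rich domain outside the cell. LRP5 and LRP6 are single-pass co-receptors of the LDL receptor family. When a WNT ligand joins a Frizzled to LRP5 or LRP6, the tail of the co-receptor is phosphorylated and draws AXIN to the membrane, and β-catenin is spared from degradation. FZD3 and FZD6 are best known for planar cell polarity, FZD4 for its response to Norrin in retinal vessels, and FZD1, FZD2 and FZD7 form a subfamily of closely related receptors.

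The deposited log2 values form a smaller set of 6 (the libraries of myc-/- siCtrl and of myc-/- + MYC) and a larger set of 12 (those of the other 4 groups), on different scales: the leading principal component carried 74.7% of the variance and separated them. Groups were compared only within a set. In the smaller, MYC was read from untransfected myc-/- + MYC cells and transfected myc-/- siCtrl cells; in the larger, from transfected myc-/- + MYC siCtrl cells and untransfected myc-/- cells. By the labels, transfection thus changes together with MYC, and their effects cannot be told apart. The untransfected myc-/- + MYC libraries share their scale with the transfected myc-/- libraries rather than with the untransfected ones, and whether the labels of these myc-/- groups are exchanged could not be settled; if they were, transfection would be matched within each set, and every value given here for myc-/- would belong to myc-/- siCtrl and the reverse. A gene passed at a change of 1.5-fold or more and a limma adjusted p of at most 0.01 over all genes. The depth of the libraries is unknown, and the number of reads behind a value cannot be given. Of the markers of fibroblasts, Vim, Fn1, Col1a1, Col3a1 and S100a4 had group means of 14.76 or more, Thy1 and Pdgfrb between 11.4 and 14.8, and Col1a2 at most 4.08. Of these 8 markers, 4 fell with MYC in both sets: Col1a1 (log2FC -1.73 and -5.95), Pdgfrb (-1.72 and -3.08), Thy1 (-1.15 and -2.20) and Fn1 (-1.76 and -1.80). Vim (0.13 and -0.17), S100a4 (0.17 and -0.37) and Col1a2 (-0.13 and -0.16) did not pass in either set. Col3a1 rose in the smaller set (1.30) and was at -0.08 in the larger, and Krt8, an epithelial keratin, rose in both (1.695 and 1.174). The other epithelial markers in the table, Epcam (-0.01 and 0.01) and Cdh1 (0.004 and -0.04), did not pass in either set. The part of these marker changes in the receptor results was not tested. The epithelial, endothelial and leukocyte markers in the table lay between 0.9 and 8.9. Some low values hardly moved: Kdr was at 5.26 and Col1a2 at 3.64 with siCtrl, siAHR-2 and siAHR-5 alike. Whether such flat values are levels of expression could not be settled. The rat Myc gene had log2 values of 9.16 to 9.47 in myc-/- siCtrl cells, 8.01 to 8.08 in myc-/- + MYC cells, 10.82 to 10.94 in myc-/- cells and 8.16 to 8.53 in the groups with MYC and an siRNA. The deletion may not cover every read counted for rat Myc, and the human transgene is not measured apart from it, so that these values do not check the labels. The library of myc-/- replicate 2 stood apart, with a mean difference of 0.117 from the other libraries of its group over all genes, against 0.0433 to 0.0768 in the other libraries. In bulk RNA, fewer cells with a transcript and less of it in each cell cannot be told apart.

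In both MYC comparisons the transcript of Fzd1 fell and that of Fzd2 rose. Fzd4 rose in the smaller set and did not pass in the larger, and Lrp6 had log2FC of opposite sign without passing in either. In the smaller set, 3 of the 8 receptor genes passed, 2 higher and 1 lower, where 26.8% of all genes passed (12.5% higher and 14.3% lower). In the larger set, 2 of the 8 passed, 1 higher and 1 lower, where 25.5% of all genes passed (10.8% higher and 14.7% lower). After quantile normalization more genes were higher than lower in both, with 1799 against 1684 and 1796 against 1660. Without the fold cutoff, an adjusted p below 0.05 was reached by 6 of the 8 in the former, against 76.2% of all genes, and by 4 of the 8 in the latter, against 64.7%. Libraries with and without MYC did not overlap for 6 of the 8 in the former, against 78.8% of all genes, and for 4 of the 8 in the latter, against 70.5%. These counts were near or below the shares among all genes. With only 8 genes, the 3 that passed in the smaller set (37.5%) are not read as an excess.

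**Figure D1:**
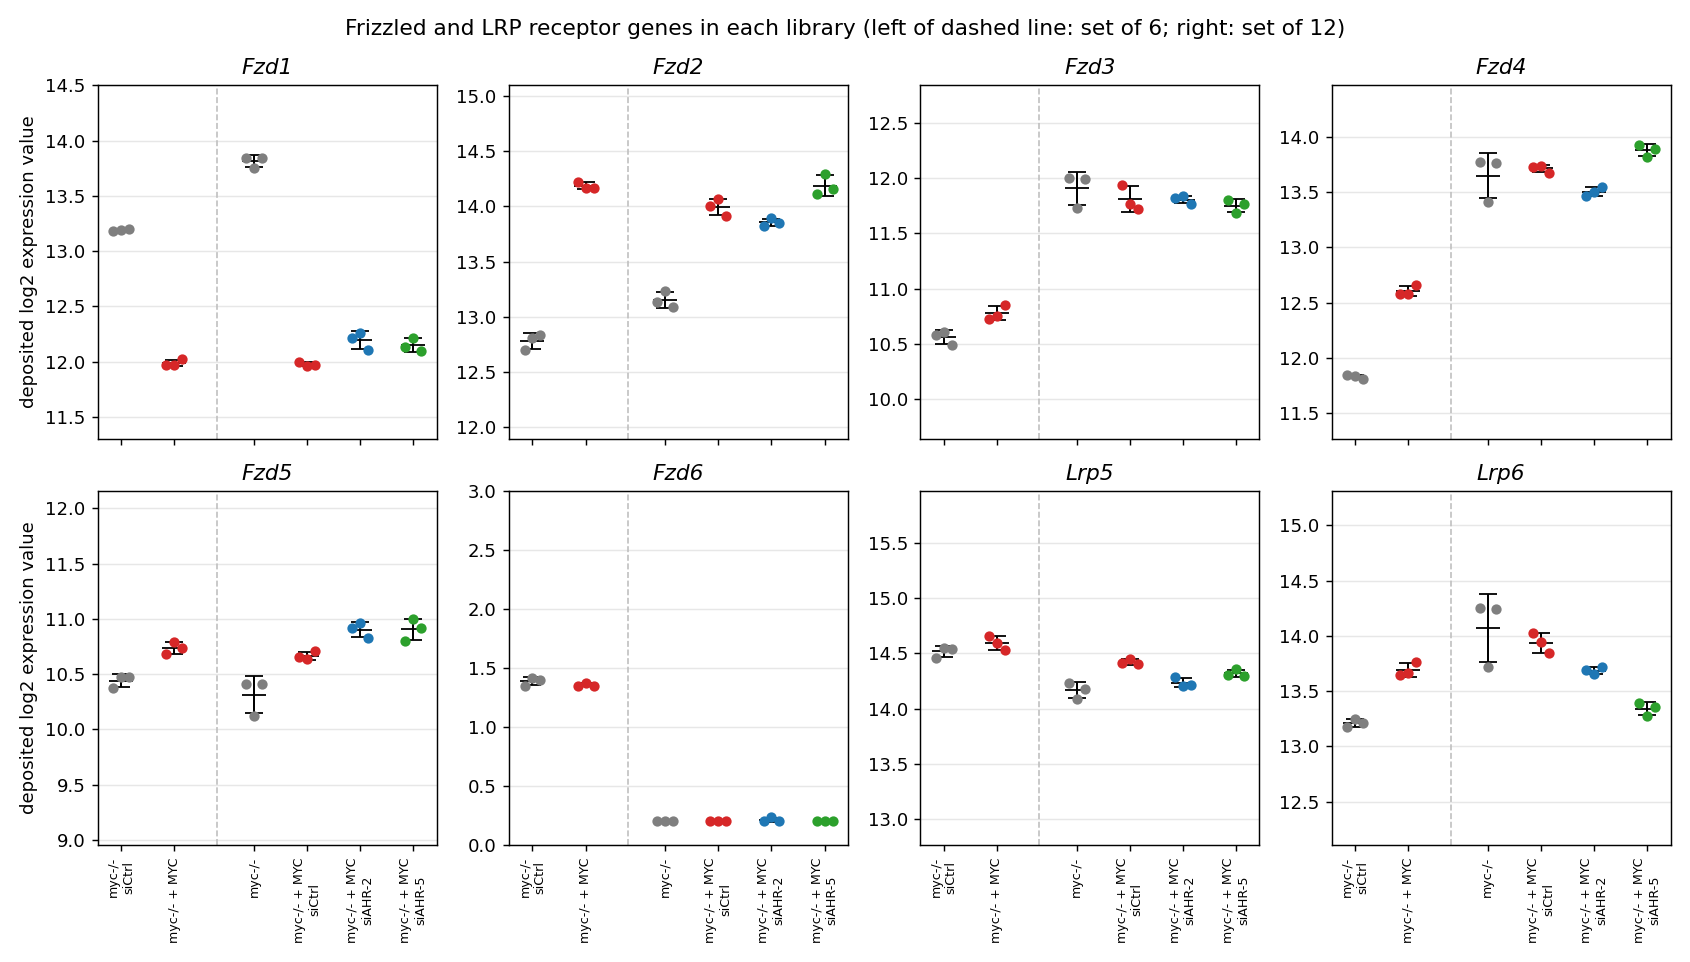
Deposited log2 expression value (vertical axis) of the 8 receptor genes in each of the 18 libraries; points are libraries, and the black marks give the group mean with 1 SD (n = 3). Groups left of the dashed line (smaller set) and right of it (larger set) are on different scales and are not to be compared; Fzd1 is high in both groups without MYC and Fzd2 is low in them, while Fzd6 lies near 0.20 in the larger set.

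Fzd1, which encodes a receptor of canonical WNT signaling, had log2 values of 13.18, 13.19 and 13.20 in the 3 myc-/- siCtrl libraries and 11.97, 11.97 and 12.02 in the 3 myc-/- + MYC libraries. Every library with MYC lay more than 1 log2 unit below every library without it. The log2FC was -1.20 (95% interval -1.27 to -1.13, limma adjusted p = 3.64e-11), a fall to 0.435 of the level without MYC. Among the 12 libraries, Fzd1 was 13.84, 13.75 and 13.84 in myc-/- cells and 11.99, 11.96 and 11.97 in myc-/- + MYC siCtrl cells. Again there was no overlap, and the fall was larger, with a log2FC of -1.84 (95% interval -1.92 to -1.75, limma adjusted p = 4.29e-07), a 3.57-fold fall. The difference between the sets was -0.64 (limma adjusted p = 9.90e-08 for the difference).

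Fzd2 encodes a receptor used by both canonical and β-catenin-independent WNT signaling. Its log2 values were 12.70, 12.81 and 12.84 in myc-/- siCtrl cells and 14.22, 14.17 and 14.16 in myc-/- + MYC cells. All 3 libraries with MYC were above all 3 without it, and the log2FC was 1.40 (95% interval 1.32 to 1.49, limma adjusted p = 5.35e-11), a 2.64-fold rise. Fzd2 in the larger set was 13.13, 13.24 and 13.09 in myc-/- cells and 14.00, 14.06 and 13.91 in myc-/- + MYC siCtrl cells. The groups again did not overlap, with a log2FC of 0.84 (95% interval 0.70 to 0.97, limma adjusted p = 4.05e-05), a 1.79-fold rise. The log2FC in the larger set minus that in the smaller was -0.56 (limma adjusted p = 8.06e-06 for the difference).

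The difference between Fzd2 and Fzd1 within a library, in log2 units, puts both changes on one scale. Because gene length is the same in every library it drops out of a change in this difference, although it does not drop out of the difference itself. It was -0.480, -0.379 and -0.362 in myc-/- siCtrl cells and 2.251, 2.197 and 2.141 in myc-/- + MYC cells, a shift of 2.60 or 6.08-fold in the ratio of Fzd2 to Fzd1. In the larger set it was -0.709, -0.514 and -0.752 in myc-/- cells and 2.006, 2.102 and 1.942 in myc-/- + MYC siCtrl cells, a shift of 2.68 or 6.39-fold. The groups did not overlap in either set, which follows from the changes of the single genes and is given as a description.

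**Figure D2:**
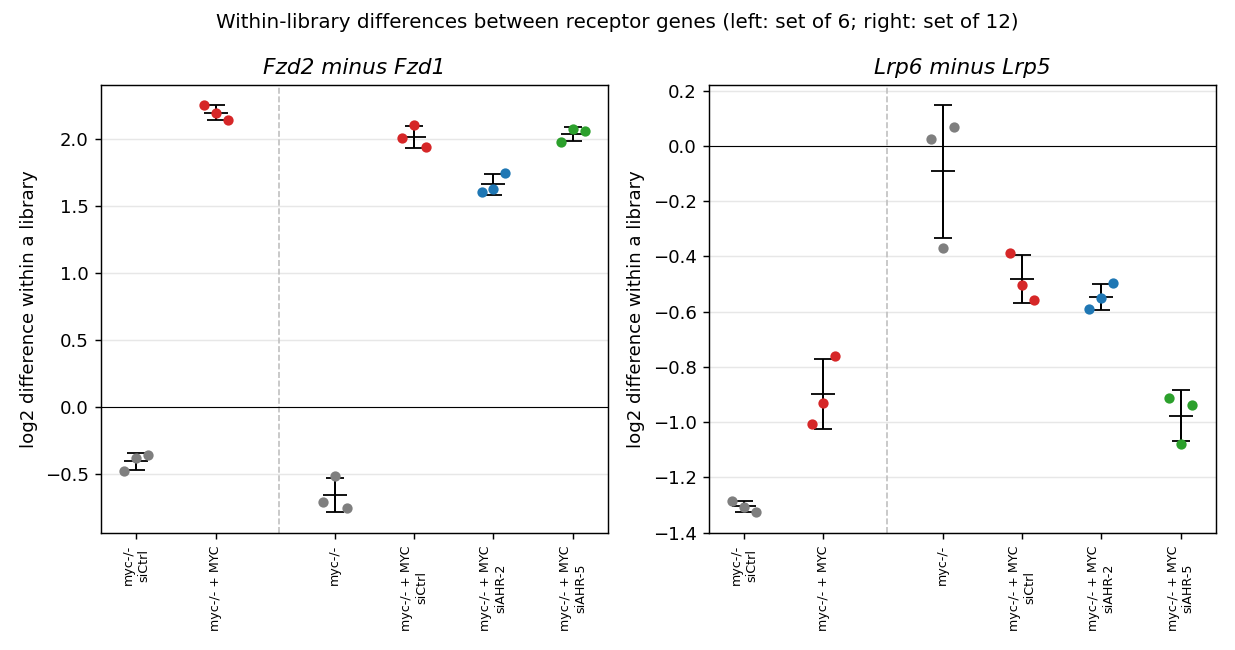
Difference in log2 value between 2 receptor genes of the same library (vertical axis, log2 units), Fzd2 minus Fzd1 on the left and Lrp6 minus Lrp5 on the right, in each library of the 6 groups; black marks give the mean with 1 SD (n = 3). Fzd2 minus Fzd1 lies below 0 in all 6 libraries without MYC and above 1.6 in all 12 with MYC, whereas Lrp6 minus Lrp5 is higher with MYC in the smaller set and lower with MYC in the larger set.

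Fzd4, the receptor for Norrin as well as for WNT ligands, was 11.84, 11.84 and 11.81 in myc-/- siCtrl cells and 12.58, 12.58 and 12.66 in myc-/- + MYC cells. It rose by 0.77 on the log2 scale (95% interval 0.69 to 0.85, limma adjusted p = 3.75e-09), or 1.71-fold, with no overlap. Fzd4 in the larger set was 13.77, 13.41 and 13.76 in myc-/- cells and 13.73, 13.74 and 13.68 in myc-/- + MYC siCtrl cells. These groups overlapped, with a log2FC of 0.06 (95% interval -0.19 to 0.32, limma adjusted p = 0.612) that became -0.05 without myc-/- replicate 2, the lowest library. The MYC log2FC of Fzd4 differed between the sets by -0.71 (limma adjusted p = 3.37e-05 for the difference), and by -0.83 without that library.

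Fzd5, a receptor with a known part in intestinal and eye development, was 10.37, 10.47 and 10.48 in myc-/- siCtrl cells and 10.68, 10.79 and 10.73 in myc-/- + MYC cells. Fzd5 values in the larger set were 10.41, 10.12 and 10.41 in myc-/- cells and 10.65, 10.64 and 10.70 in myc-/- + MYC siCtrl cells. The libraries with MYC were above those without it in both sets, but neither log2FC reached the fold cutoff: 0.29 and 0.35 (adjusted p = 2.50e-04 and 0.0144 by limma). Without myc-/- replicate 2 the latter was 0.26 (limma adjusted p = 0.00368). The difference between the sets was 0.06, with a 95% interval from -0.16 to 0.27.

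Fzd3 was 10.58, 10.61 and 10.49 in myc-/- siCtrl cells and 10.72, 10.76 and 10.85 in myc-/- + MYC cells. This small step without overlap, a log2FC of 0.22 (limma adjusted p = 0.00274), stayed below the fold cutoff. Fzd3 in the larger set was 11.999, 11.732 and 11.989 in myc-/- cells and 11.941, 11.762 and 11.724 in myc-/- + MYC siCtrl cells, which overlapped through myc-/- replicate 2 alone (log2FC -0.10, 95% interval -0.33 to 0.14, limma adjusted p = 0.403). Without that library the log2FC was -0.19 (limma adjusted p = 0.0752). Fzd6, the closest relative of Fzd3 in the family, was at the bottom of the scale. In the larger set, 11 of its values lay at 0.20 and 1 at 0.23, and in the smaller set they lay between 1.35 and 1.41, so that no fold change is given for it.

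The promoters of Fzd1, Fzd4 and Fzd5 are shown because these were the 3 receptor genes of the table with an entry among the RefSeq promoters (assembly GRCr8), each covering 250 bases before the start site and 50 after it, 5′ to 3′ on the strand of the gene. Fzd1 lies at chr4:30264824-30265123 on the + strand, Fzd4 at chr1:152692257-152692556 on the + strand and Fzd5 at chr9:73613990-73614289 on the - strand; the authors aligned to rn6, and these positions are in GRCr8. Capitals mark the letters CCAAT, a binding motif of the factor NF-Y, read on the opposite strand as ATTGG.
Fzd1: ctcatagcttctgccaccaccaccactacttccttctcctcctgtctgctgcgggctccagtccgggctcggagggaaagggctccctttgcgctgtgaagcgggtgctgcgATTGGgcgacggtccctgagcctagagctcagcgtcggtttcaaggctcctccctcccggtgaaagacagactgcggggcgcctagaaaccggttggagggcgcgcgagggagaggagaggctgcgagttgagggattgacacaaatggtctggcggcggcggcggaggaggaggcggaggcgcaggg
Fzd4: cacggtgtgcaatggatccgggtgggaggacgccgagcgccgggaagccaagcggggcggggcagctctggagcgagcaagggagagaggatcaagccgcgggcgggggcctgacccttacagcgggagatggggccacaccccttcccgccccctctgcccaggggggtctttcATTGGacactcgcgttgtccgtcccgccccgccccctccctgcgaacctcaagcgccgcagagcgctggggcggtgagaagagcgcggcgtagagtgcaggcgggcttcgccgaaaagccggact
Fzd5: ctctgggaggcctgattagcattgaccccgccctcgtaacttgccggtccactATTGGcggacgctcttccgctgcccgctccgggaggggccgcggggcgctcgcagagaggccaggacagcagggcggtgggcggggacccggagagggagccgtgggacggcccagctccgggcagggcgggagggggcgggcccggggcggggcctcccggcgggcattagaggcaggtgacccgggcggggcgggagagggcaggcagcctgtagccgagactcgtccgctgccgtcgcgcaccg
Each of these promoters holds CCAAT once, in the opposite orientation, starting 138 bases before the start site in Fzd1, 75 in Fzd4 and 197 in Fzd5. On either strand the motif occurs in 37.5% of the 33469 promoters of this length, so that its presence in a promoter is common, and it was chosen after the sequences had been seen. The MYC E-box CACGTG, which reads the same on both strands and occurs in 6.42% of all promoters, is not in these windows. GCGTG, the core of the AHR response element, was searched on both strands, is in 29.7% of all promoters and is likewise not in these windows. The G and C content was 65.3% in Fzd1, 70.7% in Fzd4 and 75.7% in Fzd5, against a median of 51.7% over all promoters. A match or its absence in these windows is a description of the letters and shows nothing about binding.

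Lrp6, the co-receptor with the stronger signaling activity of the pair, was 13.17, 13.24 and 13.22 in myc-/- siCtrl cells and 13.65, 13.66 and 13.76 in myc-/- + MYC cells. All libraries with MYC were above those without it, with a log2FC of 0.48 (95% interval 0.40 to 0.56, limma adjusted p = 3.53e-07), short of the fold cutoff as deposited and past it after quantile normalization, at 0.62. Lrp6 in the larger set was 14.25, 13.72 and 14.25 in myc-/- cells and 14.02, 13.95 and 13.84 in myc-/- + MYC siCtrl cells. These groups overlapped through myc-/- replicate 2 alone. The log2FC was -0.13 (95% interval -0.52 to 0.25, limma adjusted p = 0.480), and -0.31 without that library (limma adjusted p = 0.00570). The MYC log2FC of Lrp6 differed between the sets by -0.61 (limma adjusted p = 0.00265 for the difference), and by -0.79 without that library.

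Lrp5 was 14.46, 14.55 and 14.54 in myc-/- siCtrl cells and 14.65, 14.59 and 14.53 in myc-/- + MYC cells. The groups overlapped, and the log2FC of 0.07 had a 95% interval from -0.01 to 0.16 (limma adjusted p = 0.105). Lrp5 in the larger set was 14.23, 14.09 and 14.18 in myc-/- cells and 14.41, 14.45 and 14.40 in myc-/- + MYC siCtrl cells, without overlap but with a log2FC of only 0.26 (limma adjusted p = 0.00235). Lrp6 minus Lrp5 within a library was higher with MYC by 0.41 log2 units in the smaller set and changed by -0.39 in the larger. The groups did not overlap in either set, and with 3 libraries against 3 the exact permutation p is then 0.1 whatever the size of the change. In myc-/- replicate 2 this difference was -0.37, against 0.02 and 0.07 in the other myc-/- libraries.

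Myc-/- replicate 2 was the lowest of its group for 6 of the 7 receptor genes above the bottom of the scale and the highest for Fzd2. The Ahr value of this library, 11.67, was also below the 12.01 and 11.95 of the other myc-/- libraries. The part of this library's overall distance in the results for Fzd4 and Lrp6 is given by the values without it; its cause was not tested.

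The MYC log2FC differed between the sets past both cutoffs for 3 of the 8 receptor genes, Fzd1, Fzd4 and Lrp6. All 3 were lower in the larger set, where 9.67% of all genes passed as lower and 6.79% as higher; over all genes this balance of 896 higher to 1275 lower turned to 1148 to 1036 after median centring. The call for Lrp6 was lost without replicate 1 (-0.52) or 3 (-0.53) of myc-/-, replicate 3 of myc-/- + MYC siCtrl (-0.57), replicate 1 of myc-/- siCtrl (-0.59) or replicate 3 of myc-/- + MYC (-0.58). After each library was centred on its median, the differences of Fzd1 (-0.55) and Lrp6 (-0.53) fell short of the fold cutoff.

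**Figure D3:**
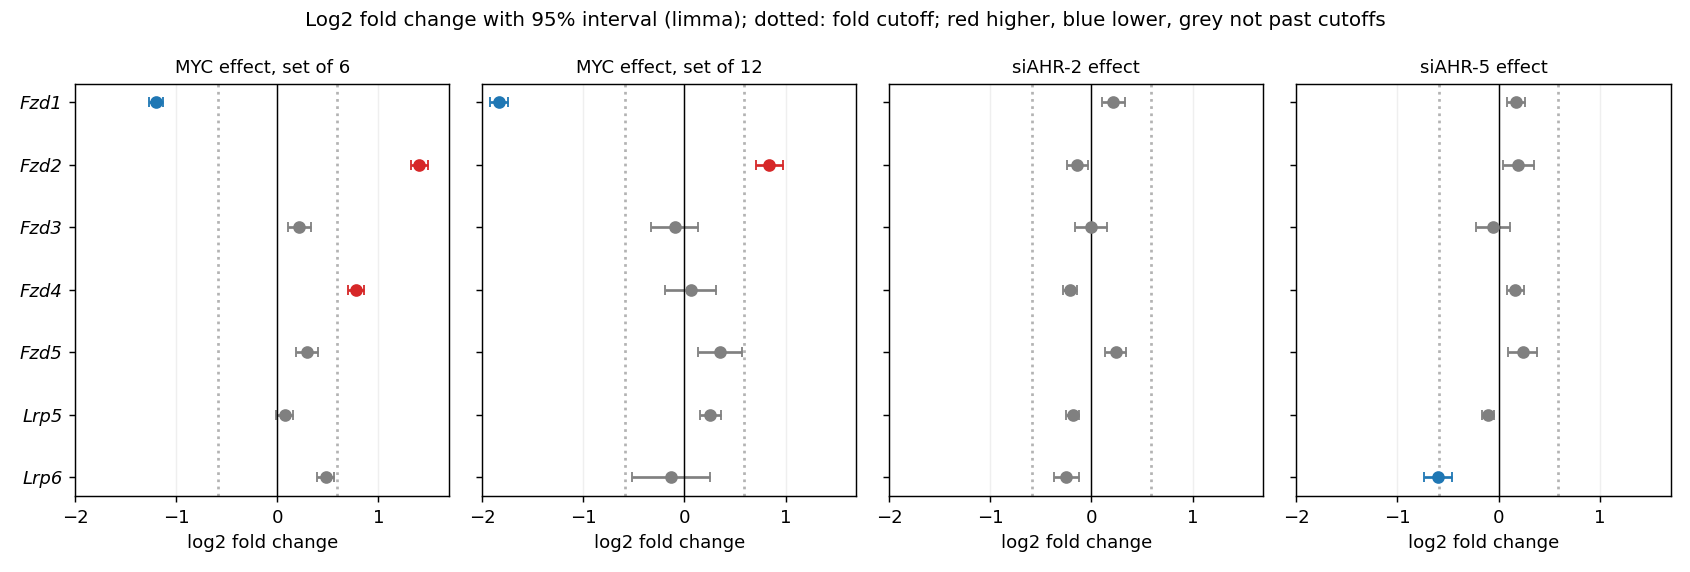
Log2 fold change (horizontal axis) of 7 receptor genes in the MYC comparisons and the siRNA comparisons, with 95% intervals from limma; dotted lines mark the 1.5-fold cutoff, and red, blue and grey points are genes higher, lower and not past both cutoffs. Fzd1 and Fzd2 stand past the cutoff on opposite sides in both MYC comparisons, and Lrp6 is the only one past it with an siRNA against AHR (-0.60 with siAHR-5); Fzd6 is left out because its values lie at the bottom of the scale.

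Whether AHR contributes to these receptor levels was asked with the siRNAs, in myc-/- + MYC cells of the larger set. Ahr was 13.34, 13.26 and 13.22 with siCtrl, 11.97, 11.97 and 12.03 with siAHR-2 and 11.95, 11.76 and 11.94 with siAHR-5. It fell with both, by 1.29 on the log2 scale with siAHR-2 (limma adjusted p = 2.37e-04) and by 1.39 with siAHR-5 (limma adjusted p = 2.16e-04). With siAHR-2, 0 of the 8 receptor genes passed by limma, where 0.47% of all genes passed (0.159% higher and 0.311% lower), and 6 of the 8 had an unadjusted p under 0.05, as had 5326 of the 13188 genes. For siAHR-5 the count was 1 of 8, Lrp6 as lower, where 2.32% of all genes passed (1.47% higher and 0.849% lower). An adjusted p below 0.05 was reached by 5 of the 8 with siAHR-2, against 29.3% of all genes, and by 5 of the 8 with siAHR-5, against 39.2%. The groups did not overlap for 6 of the 8 with siAHR-2, against 43.3% of all genes, and for 6 of the 8 with siAHR-5, against 50.5%. The siRNAs share their control libraries, so that their effects are not independent of each other.

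Lrp6 was 14.02, 13.95 and 13.84 with siCtrl, 13.69, 13.65 and 13.72 with siAHR-2 and 13.40, 13.27 and 13.35 with siAHR-5. The 3 groups formed 3 steps without overlap. The log2FC was -0.25 with siAHR-2 (95% interval -0.37 to -0.13, limma adjusted p = 0.0161), too small to pass, and -0.60 with siAHR-5 (95% interval -0.74 to -0.46, limma adjusted p = 0.00100), a 1.51-fold fall. That call stood just inside the fold cutoff and was lost without replicate 2 of siAHR-5 (-0.56), without replicate 1 of siCtrl (-0.55) and after quantile normalization (-0.57). Compared directly, Lrp6 was lower with siAHR-5 than with siAHR-2 by a log2 difference of -0.34 (limma adjusted p = 0.00134). Lrp5 was 14.28, 14.21 and 14.21 with siAHR-2 and 14.31, 14.35 and 14.29 with siAHR-5, all below the siCtrl libraries. Its log2FC of -0.19 and -0.10 (adjusted p = 0.00569 and 0.0224 by limma) did not reach the fold needed.

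For Fzd4 and Fzd2 the siRNAs gave values on opposite sides of the control. Fzd4 was 13.73, 13.74 and 13.68 with siCtrl, 13.46, 13.50 and 13.54 with siAHR-2 and 13.93, 13.82 and 13.89 with siAHR-5. Every siAHR-2 library was below the control libraries and every siAHR-5 library above them, by log2FC of -0.21 (adjusted p = 0.00449) and 0.17 (adjusted p = 0.0132) in limma. The siAHR-5 libraries exceeded the siAHR-2 libraries by 0.38 (95% interval 0.29 to 0.47, limma adjusted p = 8.79e-04). Fzd2 was 13.82, 13.89 and 13.85 with siAHR-2 and 14.11, 14.29 and 14.16 with siAHR-5, on either side of the siCtrl values given above. Neither step differed from siCtrl at the cutoff (log2FC -0.14, limma adjusted p = 0.0619, and 0.19, limma adjusted p = 0.0551), but the siAHR-5 libraries exceeded the siAHR-2 libraries by 0.33 (95% interval 0.20 to 0.46, limma adjusted p = 0.00481). In this direct comparison 0 of the 8 receptor genes passed by limma, where 2.18% of all genes did (1.33% higher and 0.849% lower). An adjusted p below 0.05 was reached by 3 of them, against 39.1% of all genes, and 4 had an unadjusted p under 0.05, as had 6176 of the 13188 genes. For 4 of the 8 the siRNA groups did not overlap, against 49.5% of all genes.

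Fzd1 and Fzd5 had higher values with both siRNAs. Fzd1 was 12.22, 12.26 and 12.10 with siAHR-2 and 12.13, 12.22 and 12.10 with siAHR-5, above the siCtrl libraries at 11.96 to 11.99 and far below the myc-/- libraries. Their log2FC were 0.22 and 0.17 (adjusted p = 0.0184 and 0.0141 by limma). Fzd5 was 10.92, 10.96 and 10.83 with siAHR-2 and 10.80, 10.99 and 10.91 with siAHR-5, also above every siCtrl library, with a log2FC of 0.24 in each (limma adjusted p = 0.0127 and 0.0212). Fzd3 had values of 11.77 to 11.83 with siAHR-2 and 11.68 to 11.80 with siAHR-5, which overlapped the siCtrl values of 11.72 to 11.94.

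In the order of group means within the larger set, Fzd1 ran from myc-/- (13.81) to siAHR-2 (12.19), siAHR-5 (12.15) and siCtrl (11.98), and only the siRNA groups overlapped as neighbours. Fzd2 ran from siAHR-5 (14.19) to siCtrl (13.99), siAHR-2 (13.85) and myc-/- (13.15) with no overlap between neighbours. Lrp6 ran from myc-/- (14.07) to siCtrl (13.94), siAHR-2 (13.69) and siAHR-5 (13.34), where only myc-/- and siCtrl overlapped. For Fzd3 every pair of neighbours overlapped, although myc-/- replicates 1 and 3 lay above every library of the other 3 groups. Over the 12 libraries, Fzd1 and Fzd2 had a Pearson correlation of -0.936, and over the 6 libraries of the other set one of -0.998; these points share the MYC groups, and the values describe that split.

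The genes of the table whose values followed Fzd1 most closely over the 12 libraries were Trib1, Klf9 and Vopp1, with a Pearson r of 0.998, 0.997 and 0.997. Over the 6 libraries of the other set their r with Fzd1 was 0.996, 0.968 and 0.990. The closest to Fzd2 were Tmem259, Cdc42bpg and Kcnn4, each with r = 0.99 over the 12 libraries, and 0.987, -0.550 and 0.999 over the other 6. Cdc42bpg thus followed Fzd2 in one set only. These values rest on libraries of 4 groups in the larger set and 2 in the smaller, and are given without a test.

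The receptors work with other membrane proteins, and 74 genes of this neighbourhood were listed by role, of which 55 are in the table. In the smaller set, 18 of the 55 passed, against 26.8% of all genes, with a median log2FC of -0.11 (all genes -0.00). Of these, 7 were higher and 11 lower, where 12.5% of all genes passed as higher and 14.3% as lower. In the larger set, 21 passed, against 25.5% of all genes, with a median of -0.27 (all genes -0.00). Of these, 4 were higher and 17 lower, where 10.8% of all genes passed as higher and 14.7% as lower. After quantile normalization the balance of all genes in the larger set was 1796 higher to 1660 lower, and that of these 55 is not given here. Passing in both sets were 2 genes as higher and 10 as lower, and 0 had opposite calls. The share of all genes that passed in both sets is not given here, so these counts are a description without a background.

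Of the 5 alternative WNT receptors in the table, Ror2, a receptor tyrosine kinase for WNT5A, fell furthest, with log2FC of -2.72 in the smaller set and -4.14 in the larger (adjusted p = 1.25e-11 and 1.21e-07 by limma). Ror1 fell in the larger set alone (-0.97, and 0.29 in the smaller set; the difference of -1.26 had a limma adjusted p of 5.93e-06), and Ryk, Ptk7 and Musk did not pass in either. Smo, the Frizzled-class receptor of Hedgehog signaling, fell in both sets (-0.68 and -1.02). Among 6 membrane partners of Frizzled or LRP, Antxr1, which binds LRP6, fell in both sets (-1.28 and -1.54). Mcam, a membrane protein that binds WNT5A, rose in the larger set (1.54, limma adjusted p = 1.10e-06) and was at 0.31 in the smaller. Reck, which presents WNT7 to Frizzled, fell in the larger set (-0.90) and again with siAHR-5 (-0.78, limma adjusted p = 1.93e-04), and missed the fold cutoff in the smaller set (-0.58).

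Of 4 genes for the folding and maturation of the receptors or their ligands, 2 passed in each set, against 26.8% and 25.5% of all genes. Mesdc2, the chaperone that LRP5 and LRP6 need to fold, fell by 1.12 and 1.58 on the log2 scale (adjusted p = 1.95e-11 and 2.49e-07 by limma). Wls, which carries WNT ligands to the surface, rose in the smaller set (0.77) and was at 0.27 in the larger, and Porcn, which attaches a lipid to them, was at -0.21 in the smaller and fell in the larger (-1.51). Rnf43, a ubiquitin ligase that removes Frizzled from the membrane, rose by 1.65 and 0.62. Its inhibitors moved apart: the secreted R-spondin Rspo1 fell (-1.65 and -3.28), and Rspo3 rose (0.65 and 1.15). Of 8 turnover genes in the table, 3 passed in the smaller set (2 higher, 1 lower) and 4 in the larger set (2 higher, 2 lower), against 26.8% and 25.5% of all genes. Kremen1, a co-receptor of the LRP6 inhibitor DKK1, fell in the larger set (-0.84) and was at -0.57 in the smaller. Rspo1 was also higher with siAHR-5 than with siAHR-2, by 0.76 (limma adjusted p = 4.32e-04).

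Of 14 genes that act on the tail of LRP6 or bind it in the signalosome, 5 passed in the smaller set (3 higher, 2 lower, against 26.8% of all genes) and 2 in the larger set (both lower, against 25.5%). Among all genes, 12.5% passed as higher and 14.3% as lower in the smaller set, and 10.8% and 14.7% in the larger. Cdk14, a kinase that primes LRP6 in mitosis, fell in both (-1.05 and -0.82). Dvl1 and Axin2 rose in the smaller set (0.84 and 0.75) and stayed below the fold cutoff in the larger set (0.56 and 0.33). Grk6 rose in the smaller set (1.04) and was at 0.05 in the larger set, a difference of -0.98 (limma adjusted p = 1.88e-09). Csnk1g1, a casein kinase 1γ that phosphorylates LRP6, fell in the smaller set (-0.65) and was at 0.54 in the larger set, a difference of 1.20 (limma adjusted p = 3.42e-07).

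**Figure D4:**
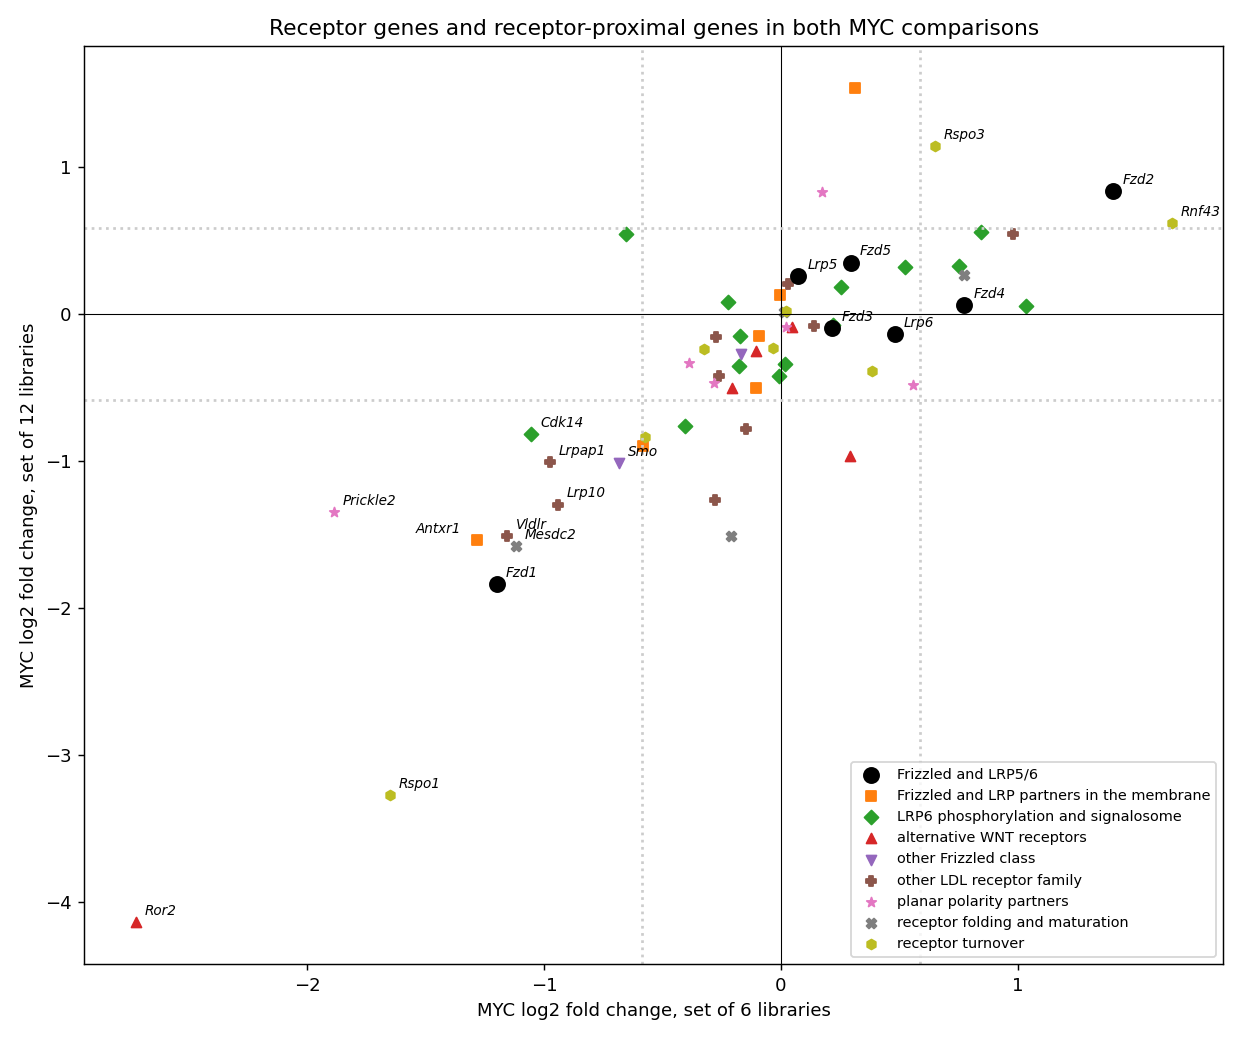
MYC log2 fold change in the smaller set (horizontal axis) against the larger set (vertical axis) for 7 receptor genes (black circles) and 55 genes of the receptor neighbourhood (coloured by role); dotted lines mark the 1.5-fold cutoff and names are given for receptor genes and for genes past both cutoffs in both sets. Fzd2, Rnf43 and Rspo3 lie at the upper right, and Fzd1 lies among 10 neighbourhood genes at the lower left, with Ror2 and Rspo1 farthest out.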

How the data were processed

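RNA from HO15.19 cells was sequenced after poly-A selection with a kit that, per the labels, is the NEBNext Ultra kit, which does not mark strand. The authors checked the reads, aligned them to rn6 with HISAT2 2.1.0, removed genes with fewer than 10 reads in all, normalized with DESeq2 and deposited log2 values for each library; the read counter and annotation are not given in the sources used here. The deposited values are named log CPM, yet off the log scale they sum to between 86.3 and 161 times the total that CPM would give, so they are not CPM, they give no depth, and they are not scaled by gene length.

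Comparisons were fitted with limma 3.58.1 in R 4.3.3 (mean-variance trend, only the groups compared) and adjusted by Benjamini-Hochberg over 13188 genes. The difference of the MYC effects was fitted over 12 libraries in 4 groups. A gene passed at a 1.5-fold change and an adjusted p of 0.01. Named genes are all receptor genes in the table, listed neighbourhood genes past the cutoffs in a comparison, and for receptor genes past the cutoffs in both MYC comparisons the 3 most alike by Pearson r. The members and lists were chosen with earlier results of these data known, and a few neighbourhood genes are named for not passing. Alternatives were the cutoff, 18 libraries in one fit, no trend, quantile normalization, median centring, a floor of 1 on the mean log2 value, a pseudocount of 1, a replicate block and leaving out each library. In GRCr8, 1 other gene model overlaps each of Fzd3, Fzd5 and Lrp5, so that without strand their reads may be shared. Python 3.11.15 and matplotlib 3.10.9 made the figures.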

Additional observations from a re-analysis of the deposited data

Results flagged for a closer look

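The log2FC of MYC differed between the sets at a limma adjusted p of at most 0.01 for 4 receptor genes, whatever the size of the difference (larger set minus smaller set). The share of all genes at that limit alone is not given here, so this count only says which genes were flagged. An adjusted p below 0.05 was reached by 6 of the 8, with Fzd3 (-0.31) and Lrp5 (0.18), against 54.9% of all genes. The difference was -0.64 for Fzd1, which fell in both sets, and -0.56, short of the fold cutoff, for Fzd2, which rose in both. It was -0.71 for Fzd4, which rose in the smaller set and was at 0.06 in the larger. It was -0.61 for Lrp6, whose log2FC was 0.48 and -0.13. The transfection label runs the opposite way with MYC in the sets, and its part in these differences cannot be told apart from that of the set.

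The siRNAs against AHR differed from each other at a limma adjusted p of at most 0.01 for 3 receptor genes, of which 0 reached the fold cutoff. These 3 of 8 are also all that had an adjusted p below 0.05, a share near the 39.1% of all genes. Ahr itself had a difference of -0.11 (limma adjusted p = 0.211). The value with siAHR-5 minus that with siAHR-2 was 0.33 for Fzd2, 0.38 for Fzd4 and -0.34 for Lrp6.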

How the results depend on the processing

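Of 630 log2FC of receptor genes under the alternatives, 584 kept their direction and side of the cutoffs, 25 passed newly, 11 were lost and 10 changed sign. With an adjusted p below 0.05 and no fold cutoff, the numbers of receptor genes higher and lower were 5 and 1 for MYC in the smaller set, 3 and 1 in the larger, 2 and 3 for siAHR-2, 3 and 2 for siAHR-5, 2 and 1 between the siRNAs, and 1 and 5 for the difference of the MYC effects, where 54.9% of all genes had such a p. After quantile normalization 0 receptor genes were lower with siAHR-5 by limma, where on the deposited values 6 of 8, and 6300 of all 13188 genes, had an unadjusted p under 0.05. After median centring 1 gene was lower in the difference of the MYC effects. With each library left out, the number lower ranged from 0 to 1 for siAHR-5 and from 2 to 4 for the difference. The log2FC that changed sign were small: Fzd4 in the larger set ranged from -0.055 to 0.13 over the fits without one library, Fzd3 from -0.046 to 0.062 with siAHR-2 and from -0.10 to 0.0069 with siAHR-5, and Fzd5 from -0.044 to 0.052 between the siRNAs and from -0.039 to 0.11 in the difference of the MYC effects. Fzd2 in the difference of the MYC effects passed after quantile normalization (-0.68) and without replicate 2 of myc-/- + MYC siCtrl (-0.60), replicate 3 of myc-/- (-0.59) or replicate 3 of myc-/- siCtrl (-0.59), while Fzd1 was lost after quantile normalization (-0.58). Fzd5 between the siRNAs was -0.010 after quantile normalization and -0.028 after median centring. The cause was not tested. The scaling also moved the balance of all genes called: with siAHR-5, 194 higher and 112 lower became 127 and 126 after quantile normalization and 140 and 165 after median centring, and with siAHR-2, 21 and 41 became 15 and 53 after median centring. For MYC, 1653 and 1884 in the smaller set became 1799 and 1684 after quantile normalization, and 1425 and 1936 in the larger became 1796 and 1660; for the difference, 896 and 1275 became 1148 and 1036 after median centring. Same-numbered libraries did not deviate together in every pair (correlations from -0.26 to 0.24), and at most 4 of 6 libraries matched their own number best. The replicate block changed 0 of 42 calls of receptor genes (for Lrp6 with siAHR-5 the log2FC stayed -0.60); over all genes the number called with siAHR-2 went from 62 to 0 by limma, where 5030 had an unadjusted p under 0.05, and with siAHR-5 from 306 to 270. Depth is unknown, so the limit it sets on Fzd6 cannot be given.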

Other observations

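Lrp5 and Lrp6 belong to the LDL receptor family, for which 10 other listed genes are in the table, among them the chaperone Lrpap1, which is not a receptor. Of these 10, 4 passed with MYC in the smaller set (1 higher and 3 lower), where 12.5% of all genes were higher and 14.3% lower. The higher gene was Lrp1b (log2FC 0.98), which was at 0.54 in the larger set and did not pass there. In the larger set 5 passed (0 higher and 5 lower), where 10.8% of all genes were higher and 14.7% lower, and the family was not tested against other genes. Those lower in both were Vldlr (log2FC -1.15 and -1.51), a receptor for very low density lipoprotein and Reelin, Lrp10 (-0.94 and -1.30) and Lrpap1 (-0.97 and -1.01), a chaperone of the family. Lrp1, an endocytic receptor of fibroblasts, fell by 1.26 (log2) in the larger set and was at -0.28 in the smaller, a difference of -0.98 (limma adjusted p = 4.87e-05).

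Among planar polarity partners of the Frizzled proteins, 6 of 8 listed are in the table. Prickle2 fell in both sets (-1.89 and -1.35), and Celsr2, an atypical cadherin, rose in the larger set (0.83) and was at 0.17 in the smaller. The remaining genes did not pass in either set.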
